A study of Homo sapiens with 21 samples.

Results

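Open chromatin in the 3 libraries titled SORL1-A528T was set against that in the 3 libraries titled TREM2-KO, since the labels of these 6 libraries disagree. The title and the sample description of the first 3 name SORL1-A528T, whereas their genotype field reads TREM2-KO, the same entry that the second 3 carry. The 6 libraries were taken by title from 21 libraries of 7 lines with 3 libraries each, and the comparison asked whether the peak lists of the 2 sets look like those of 1 line. The established human embryonic stem cell line H9 was the parent of all lines, and the cells were differentiated over 28 days with IL-34, TGF-beta and M-CSF into microglia-like cells, with CD200 and CX3CL1 added at the end. Per the labels' protocols, CRISPR/Cas9 editing made H9 homozygous for the SORL1 substitution A528T in the SORL1-A528T line and for a loss of TREM2 in the TREM2-KO line. The edited cells were isolated as clones, and nothing in the labels says whether a line is more than 1 clone or whether its 3 libraries came from separate differentiations. The spread behind each p-value is therefore that of 3 libraries per line and may be technical. The remaining lines were CD33 SNP, INPP5D SNP, SORL1-KO and TREM2-R47H, all edited, and the unedited WT.

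TREM2 is a lipid-sensing receptor on the surface of microglia that signals through the adaptor TYROBP. SORL1 is a sorting receptor that carries cargo between endosomes, the Golgi and the cell surface, and the amino acid substitution and the knockout thus alter different proteins in different compartments. In ATAC-seq a transposase cuts and tags accessible DNA, so that promoters and enhancers in use appear as peaks. A list of peaks holds no base calls and no protein level, so neither edit could be read from it; what it can show is whether 2 sets of libraries share their regions.

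Regions were peaks of the 6 files merged wherever they shared 1 bp, after each list had been shortened to the length of the shortest list of its replicate number in file order. The lists of SORL1-A528T were the shortest at all 3 numbers and stayed whole. This gave 105860 regions with a median width of 763 bp. The list place of a region is given as a percentile of the file order, in which 100 is the first peak of a list. The promoter windows of 4 genes named in the comparison are shown, from 250 bases before to 50 after the annotated start, from RefSeq on GRCh38.p14. CRYZ encodes a quinone oxidoreductase, MET the receptor of hepatocyte growth factor and H3C3 a histone H3. The CRYZ window (chr1:74733001-74733300, minus strand) had peaks in SORL1-A528T and none in TREM2-KO, the MET window (chr7:116671946-116672245, plus strand) the reverse, and the H3C3 window (chr6:26045134-26045433, plus strand) had peaks in neither. The TREM2 window (chr6:41163067-41163366, minus strand) belongs to the gene that the TREM2-KO label names. Capitals mark matches, on either strand, to 5 motifs that do not overlap one another in these windows.
CRYZ: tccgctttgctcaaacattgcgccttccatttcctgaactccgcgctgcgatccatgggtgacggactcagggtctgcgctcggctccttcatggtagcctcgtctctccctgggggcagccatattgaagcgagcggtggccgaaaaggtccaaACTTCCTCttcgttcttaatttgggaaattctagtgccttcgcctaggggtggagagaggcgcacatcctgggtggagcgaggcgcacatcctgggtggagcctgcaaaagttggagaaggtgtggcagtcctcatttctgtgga
MET: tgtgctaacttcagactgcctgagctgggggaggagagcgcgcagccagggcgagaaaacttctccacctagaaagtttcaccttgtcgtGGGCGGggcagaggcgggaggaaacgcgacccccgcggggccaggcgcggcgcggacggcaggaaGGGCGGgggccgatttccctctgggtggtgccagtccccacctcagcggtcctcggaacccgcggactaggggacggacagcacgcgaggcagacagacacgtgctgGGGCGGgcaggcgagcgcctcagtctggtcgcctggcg
H3C3: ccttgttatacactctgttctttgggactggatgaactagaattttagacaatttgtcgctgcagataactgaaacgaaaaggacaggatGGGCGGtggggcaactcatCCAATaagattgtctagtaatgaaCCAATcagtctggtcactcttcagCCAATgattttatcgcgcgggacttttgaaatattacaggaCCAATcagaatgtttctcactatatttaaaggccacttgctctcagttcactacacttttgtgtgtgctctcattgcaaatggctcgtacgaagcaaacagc
TREM2: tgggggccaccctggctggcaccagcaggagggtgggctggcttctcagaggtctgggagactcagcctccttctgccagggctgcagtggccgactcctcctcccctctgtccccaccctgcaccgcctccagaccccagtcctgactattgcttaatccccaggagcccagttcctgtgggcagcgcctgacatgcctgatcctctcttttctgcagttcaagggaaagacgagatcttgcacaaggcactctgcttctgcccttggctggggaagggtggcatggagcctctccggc
The motifs were CCAAT, the GC box GGGCGG, the TATA box TATAAA, the ETS motif CCGGAAGT and GAGGAAGT, a motif of the myeloid ETS factor PU.1. The CRYZ window held 1 match to GAGGAAGT, a motif found in 2.59% of 35116 such windows. MET held 3 matches to GGGCGG, found in 45.0% of the windows, and H3C3 held 4 to CCAAT, found in 34.6%, and 1 to GGGCGG. The TREM2 window had no match to these letters. The counts of CG pairs were 17 in CRYZ, 30 in MET, 8 in H3C3 and 5 in TREM2, beside a median of 14 over all windows.

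The lists differed in length and signal in ways that touch each result. SORL1-A528T had 69732, 39736 and 78438 peaks in replicates 1, 2 and 3, and TREM2-KO had 70130, 67861 and 102891. The means were 62635 ± 20304 in SORL1-A528T and 80294 ± 19602 in TREM2-KO (SD, n = 3 each), with an exact permutation p of 0.5 (two-sided), where 3 against 3 libraries cannot go below 0.1. Sequencing depth was alike within a number, at 56.5, 14.2 and 52.9 M tags in SORL1-A528T and 60.6, 15.8 and 49.0 M in TREM2-KO, against 12.8 to 67.4 M over the series (M, 1e6). The share of tags inside peaks was 55.3%, 73.6% and 39.4% in SORL1-A528T and 45.7%, 68.0% and 71.6% in TREM2-KO. The largest gap within a number thus stood at replicate 3. The HOMER fragment length was 74, 494 and 74 bp in SORL1-A528T and 74, 136 and 74 bp in TREM2-KO. The part of these differences in the results was not tested.

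Promoter windows of marker genes were read beside the share of all 27195 RefSeq windows with a peak, which was 47.9%, 34.7% and 47.4% in SORL1-A528T replicates 1, 2 and 3 and 48.6%, 36.7% and 47.4% in TREM2-KO. Of 13 promoter windows of homeostatic microglial genes, 13, 7 and 12 had a peak in SORL1-A528T replicates 1, 2 and 3, and 13, 11 and 12 in TREM2-KO. CX3CR1, the fractalkine receptor, and CSF1R, the receptor for M-CSF and IL-34, were each called in 2 of 3 SORL1-A528T and 3 of 3 TREM2-KO libraries. Of 10 windows of myeloid lineage factor genes, 6 were called in all 6 libraries and 1, that of IRF8, in none. The TYROBP gene end (chromosome 19, 35907515 to 35910189) was called in all 6, at percentiles 94.4, 85.6 and 96.8 in SORL1-A528T and 96.7, 76.4 and 94.5 in TREM2-KO. Of 12 windows of erythroid, megakaryocyte and mast cell genes, 4, 1 and 3 were called in SORL1-A528T and 4, 2 and 3 in TREM2-KO, and 8 of the 12, among them GATA1, KLF1 and CPA3, were called in none of the 6. In the same list KIT was called in 2 of 3 SORL1-A528T and 3 of 3 TREM2-KO libraries, ITGA2B in 2 of 3 of each and GFI1B in 1 of 3 of each. Of 9 windows of granulocyte and lymphoid genes, 5, 2 and 5 were called in SORL1-A528T and 4, 1 and 5 in TREM2-KO, among them S100A8 and S100A9 in 2 of 3 libraries of each. BCL11B was called in 3 of 3 SORL1-A528T and 1 of 3 TREM2-KO libraries, GATA3 in 3 and 2, and GFI1 in 2 and 3. Of 7 windows of pluripotency genes, 2, 1 and 1 were called in SORL1-A528T and 2, 1 and 2 in TREM2-KO. NANOG was called in none, whereas SOX2 was called in 1 of 3 SORL1-A528T and 2 of 3 TREM2-KO libraries.

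SORL1-A528T and TREM2-KO did not share more covered sequence than other pairs of lines did. The Jaccard index, the base pairs covered in both lists divided by those covered in either, was 0.636, 0.514 and 0.614 between the SORL1-A528T and TREM2-KO libraries of replicates 1, 2 and 3, a mean of 0.588 ± 0.0647 (SD, n = 3). Of the 21 pairs of lines this mean ranked 17 from the top. All 6 pairs that held SORL1-A528T took the 6 lowest places, from 0.560 with TREM2-R47H to 0.588 with WT. The 6 means lay closer together than the replicate numbers of any 1 of these pairs, whose SDs ran from 0.0600 to 0.0855. TREM2-KO in turn shared 0.646 ± 0.0419 with CD33 SNP, 0.632 ± 0.0486 with INPP5D SNP and 0.632 ± 0.0540 with WT, all above its 0.588 with SORL1-A528T. These comparisons share libraries and are given as values with no test.

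**Figure D1:**
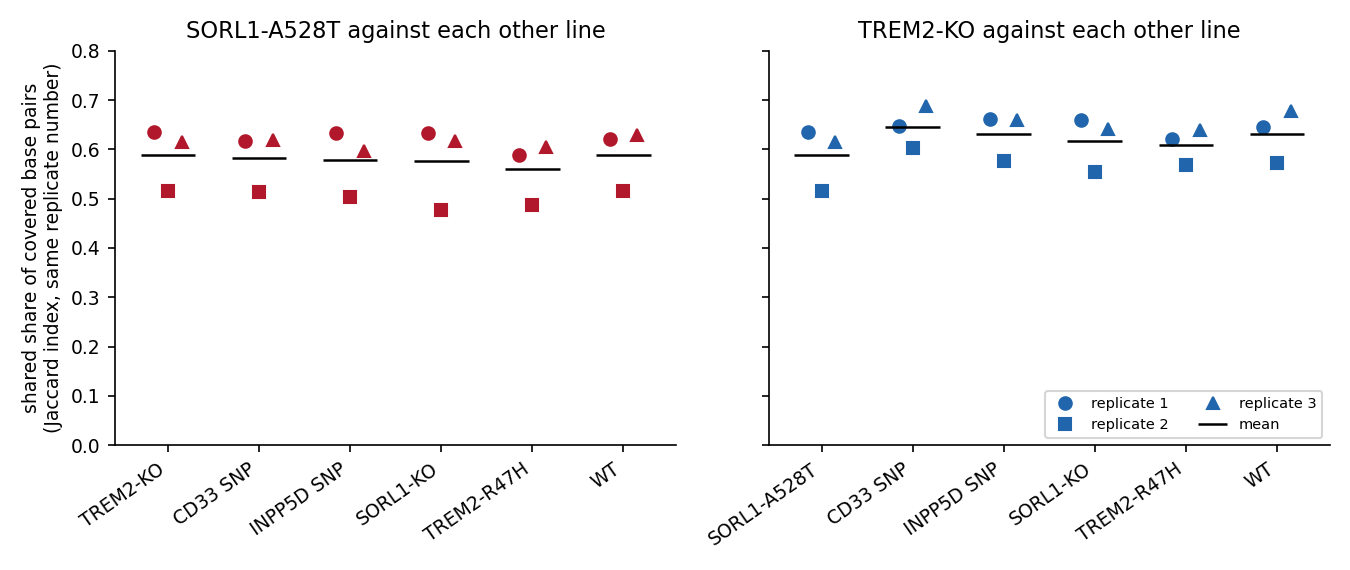
Jaccard index of covered base pairs (vertical axis) between libraries with the same replicate number, for SORL1-A528T against each of the 6 other lines (left) and TREM2-KO against each of the 6 other lines (right); symbols are replicate numbers and bars are means of 3. SORL1-A528T stood at means from 0.560 to 0.588 with every line, and SORL1-A528T was the line with the lowest mean for TREM2-KO.

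Library by library, the nearest line was not constant. SORL1-A528T replicate 1 was closest to TREM2-KO (0.636), with INPP5D SNP next at 0.633. SORL1-A528T replicate 2 was closest to WT (0.515), with TREM2-KO next at 0.514. SORL1-A528T replicate 3 was closest to WT (0.629), and TREM2-KO came in rank 4 (0.614). Seen from the other side, SORL1-A528T ranked 5, 6 and 6 of the 6 other lines for TREM2-KO replicates 1, 2 and 3. Fewer than 0.1% of SORL1-A528T peaks had exactly the coordinates of a TREM2-KO peak of the same number (0.0991%, 0.00755% and 0.0931%), so no list was a copy of another.

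Libraries of the same line were barely more alike than libraries of the 2 lines. To hold depth even, only pairs with different replicate numbers were used. The mean Jaccard index was 0.484 ± 0.0960 for 6 pairs within a line (0.468 in SORL1-A528T and 0.501 in TREM2-KO) and 0.482 ± 0.0968 for 6 pairs between the lines. The difference of 0.00275 had an exact permutation p of 0.75 (two-sided, line labels swapped within replicate numbers), where this design cannot go below 0.25. Small differences were common: SORL1-A528T with TREM2-KO had the rank 5 from the smallest of 21 pairs, TREM2-KO with WT had the smallest (-0.00213) and SORL1-A528T with WT had rank 7 (0.00406). The largest was SORL1-A528T with TREM2-R47H (0.0229). Without replicate 3 the difference between SORL1-A528T and TREM2-KO was -0.000788 (exact permutation p = 1, two-sided).

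A small number of regions separated the 2 sets without exception. Of the 105860 regions, 63 (0.0595%) were called in 3 of 3 SORL1-A528T and 0 of 3 TREM2-KO libraries, and 177 (0.167%) in 0 of 3 SORL1-A528T and 3 of 3 TREM2-KO libraries. Together these all-or-none regions were 240 (0.227%), whereas 27707 regions were called in all 6 libraries. Calls of 3 against 3 libraries allow no test per region. Among the 21 pairs of lines this total ranked 11 from the fewest, between 92 for CD33 SNP with INPP5D SNP and 1147 for SORL1-A528T with TREM2-R47H. It was the lowest of the 6 pairs that held SORL1-A528T, followed by WT (338), CD33 SNP (373), INPP5D SNP (464) and SORL1-KO (837). TREM2-KO had fewer all-or-none regions with WT (130), CD33 SNP (135) and INPP5D SNP (224) than with SORL1-A528T.

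**Figure D2:**
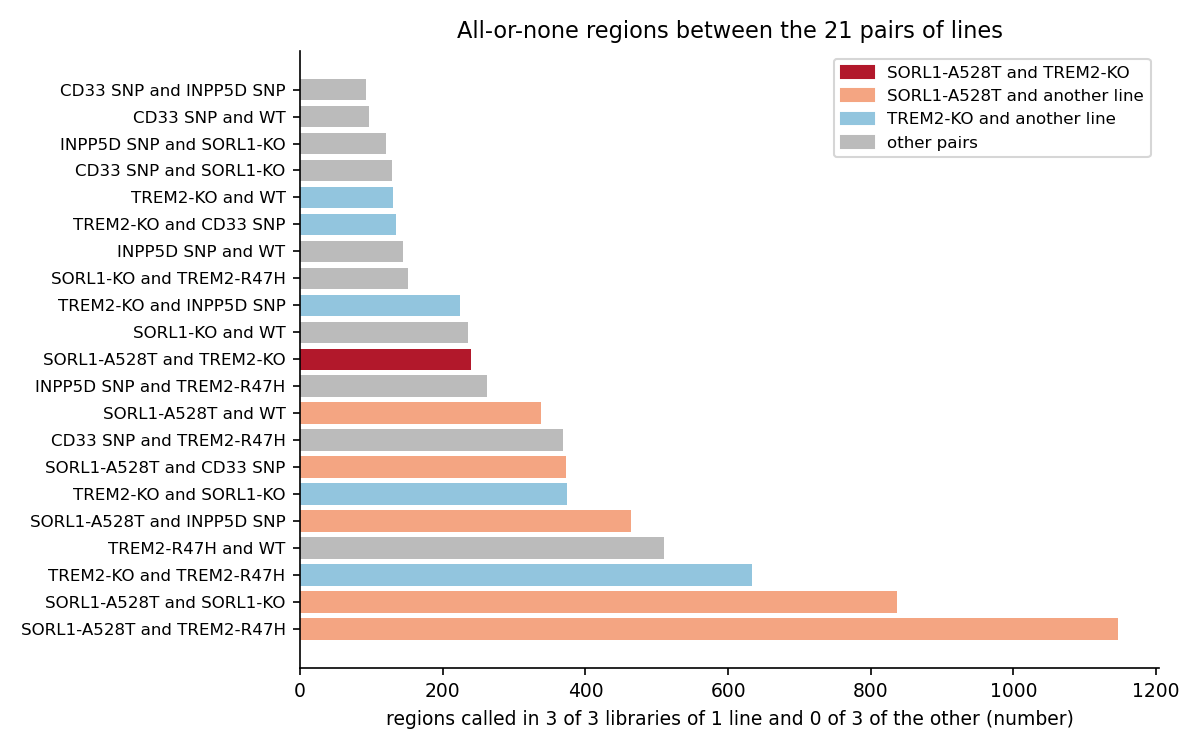
Number of regions called in 3 of 3 libraries of 1 line and 0 of 3 of the other (horizontal axis) for each of the 21 pairs of lines, with pairs coloured by whether they hold SORL1-A528T or TREM2-KO. The 240 of SORL1-A528T with TREM2-KO stand in rank 11, below the 5 other pairs with SORL1-A528T.

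Most all-or-none regions stood late in the lists, and CRYZ stood early. The files give no peak height, and whether file order follows signal was not tested. The median percentile was 17.8 for the 63 regions found in SORL1-A528T and 24.3 for the 177 found in TREM2-KO, against 32.8 over all regions. Above percentile 50 stood 3 of the 63 and 16 of the 177, against 32.8% of all regions. Above 75 stood CRYZ alone. With the lists as deposited, 10 of the 63 were still without a peak in any TREM2-KO library. The 177 were all-or-none with the deposited lists as well, which follows from the SORL1-A528T lists being whole in both settings. Gene ends (a region that comes within 1 kb of where a gene starts or stops) made up 4 of the 63 (6.35%) and 15 of the 177 (8.47%), against 13.3% of all regions and 27.4% of those called in all 6.

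**Figure D3:**
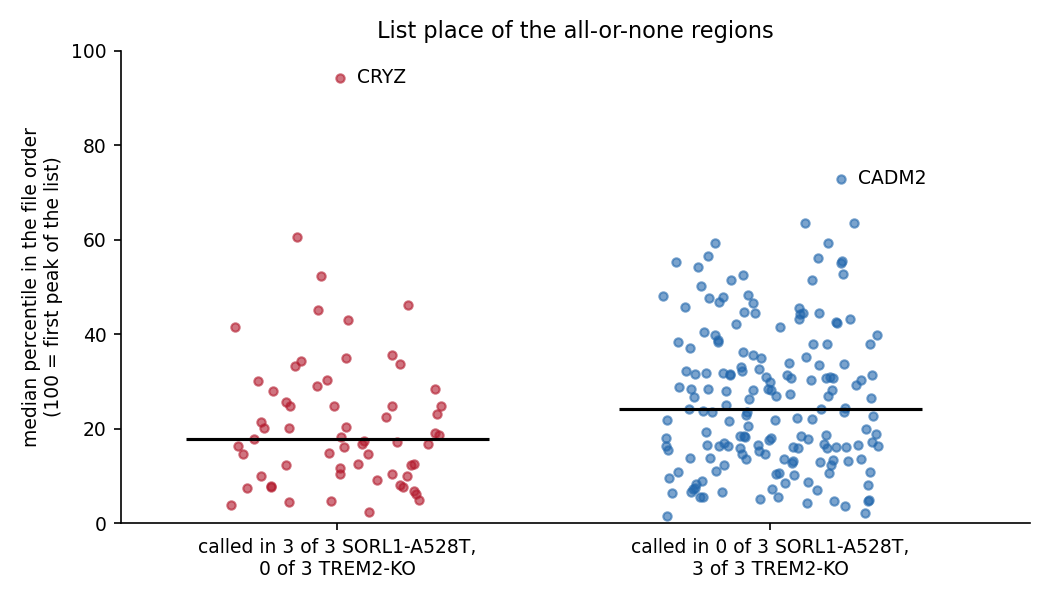
Median percentile in the file order (vertical axis, 100 being the first peak of a list) of each all-or-none region, over the 3 libraries that call it. Left are the 63 regions called in 3 of 3 SORL1-A528T and 0 of 3 TREM2-KO libraries, right the 177 of the reverse. Of the 15 libraries of the other lines, a median of 5 called the regions on the left and 9 those on the right. Bars are medians. CRYZ stands at 94.3 and the next highest point, CADM2 on the right, at 72.9.

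The CRYZ gene end (chromosome 1, 74732508 to 74734386) held a peak early in each SORL1-A528T list. The peaks were 1872, 1776 and 1624 bp wide in SORL1-A528T replicates 1, 2 and 3, at percentiles 94.3, 96.2 and 91.5. TREM2-KO had no peak there in any replicate, neither in the shortened lists nor in the deposited lists of up to 102850 peaks. All 15 libraries of the other 5 lines called the region. Over a merge of all 21 files (124651 regions), it was the single region missing from TREM2-KO and called in the 18 other libraries. A region later in the lists, at the far end of CRYZ (74702236 to 74703187) was called in 3 of 3 SORL1-A528T libraries, at percentiles 34.2, 52.3 and 46.6, and in 1 of 3 TREM2-KO libraries, at 20.2.

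Other regions called in SORL1-A528T and not in TREM2-KO stood later in the lists. Gene ends of CIROP, IFNK (an interferon) and TEDDM1 had median percentiles of 28.4, 21.3 and 19.0, and with the deposited lists 1, 2 and 1 TREM2-KO libraries called them. A region outside gene spans whose nearest gene is CACUL1 (10, 118759731 to 118760844) stood at percentiles 58.2, 60.7 and 72.5 in SORL1-A528T and was absent from the deposited TREM2-KO lists too. The other lines called it in 14 of 15 libraries, WT in 2 of 3. A region near APLN, which encodes the peptide hormone apelin (X, 129662465 to 129663382), stood at 17.4, 45.2 and 55.8 in SORL1-A528T and was also absent from the deposited TREM2-KO lists. Regions inside ARHGEF10L and KSR1, a scaffold of the MAP kinase pathway, and 2 regions with no gene within 100 kb had medians from 41.6 to 52.3. One of these 2 (7, 61967311 to 61968315) fell, in a merge of all 21 files, in a region called in 3 of 3 libraries of every line.

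In the other direction, the leading gene ends were those of PCDHA2 and MET. PCDHA2, a clustered protocadherin (5, 140794500 to 140795761), was absent from SORL1-A528T, stood at percentiles 56.1, 26.3 and 68.1 in TREM2-KO and was called in 1 of the 15 libraries of the other lines, a WT library. MET (7, 116671610 to 116672655) was absent from SORL1-A528T and stood at 52.8, 34.3 and 61.5 in TREM2-KO. The other lines called MET in 11 of 15 libraries. The gene ends of ACSS3, TMEM229A, NIM1K, ZNF763, ADGRV1, ARHGEF6, CCDC169-SOHLH2 and SPINK6 had median percentiles from 29.2 to 47.8 in TREM2-KO. In a merge of all 21 files, the region holding that of NIM1K was called in 3 of 3 libraries of every line, SORL1-A528T included. The highest of all 177 was a region inside CADM2, a synaptic adhesion gene, at 72.9. By RefSeq promoter windows, CRYZ was the single gene of 27195 with a peak in 3 of 3 SORL1-A528T and 0 of 3 TREM2-KO libraries, and 25 genes had the reverse, together 0.0956%. Those 25 included MET, PCDHA2, ROR1, RORB, FGF13 and PAK3.

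Regions that split the 7 lines without exception were then read as marks of a line, a measure chosen after the data had been seen. In the merge of 21 files, 28 regions had the same call in all 3 libraries of every line and differed between lines. Of these, 11 were missing from 1 line alone, 16 were called in 1 line alone and 1 split the lines otherwise. SORL1-A528T and TREM2-KO differed at 13 of the 28 and had the same call at 15, which ranked 19 from the fewest differences among 21 pairs. All but 1 of the 28 set a single line apart, so a pair's differences were nearly fixed by the marks of each line. The rank therefore does not measure how alike 2 lines are. SORL1-A528T differed from CD33 SNP and INPP5D SNP at 10 each, from WT at 12, from SORL1-KO at 13 and from TREM2-R47H at 17. TREM2-KO differed from CD33 SNP and INPP5D SNP at 5 each, from WT at 7, from SORL1-KO at 8 and from TREM2-R47H at 12. At 9 of the 28 the median percentile of the peaks was above 50.

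These 9 marks were read in each line. CRYZ was missing from TREM2-KO alone. A region outside gene spans near CYLD, a deubiquitinase that restrains NF-kappaB (16, 50842016 to 50843121), was missing from SORL1-A528T alone and stood at percentiles 46.8, 22.6 and 68.4 in TREM2-KO. The gene ends of ZNF717 and CAT (catalase) were missing from SORL1-KO alone and were called in SORL1-A528T at percentiles of 90.4, 91.9 and 90.8 for ZNF717 and of 90.7, 75.6 and 88.6 for CAT. In TREM2-KO, ZNF717 stood at 82.8, 78.5 and 91.2 and CAT at 83.9, 20.4 and 73.5. The gene end of PUS7L, which also covers the start of the kinase gene IRAK4, was missing from TREM2-R47H alone and stood at 89.3, 89.7 and 90.5 in SORL1-A528T and at 87.2, 90.3 and 94.9 in TREM2-KO. The region over the histone genes H2BC3 and H3C3 (6, 26043086 to 26046050) was the one mark that several lines lacked: 0 of 3 SORL1-A528T, 0 of 3 TREM2-KO, 0 of 3 CD33 SNP and 0 of 3 TREM2-R47H libraries called it, against 3 of 3 in INPP5D SNP, SORL1-KO and WT. The neighbouring histone region over H2AC4 and H3C2 (26030948 to 26034526) was called in all 21 libraries. SORL1-A528T and TREM2-KO thus differed at 2 of these 9 marks, as did each of them from CD33 SNP, from INPP5D SNP and from WT. All of the 9 but the H2BC3 region were missing from 1 line alone, so only that region could be shared by some lines and lacked by several.

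**Figure D4:**
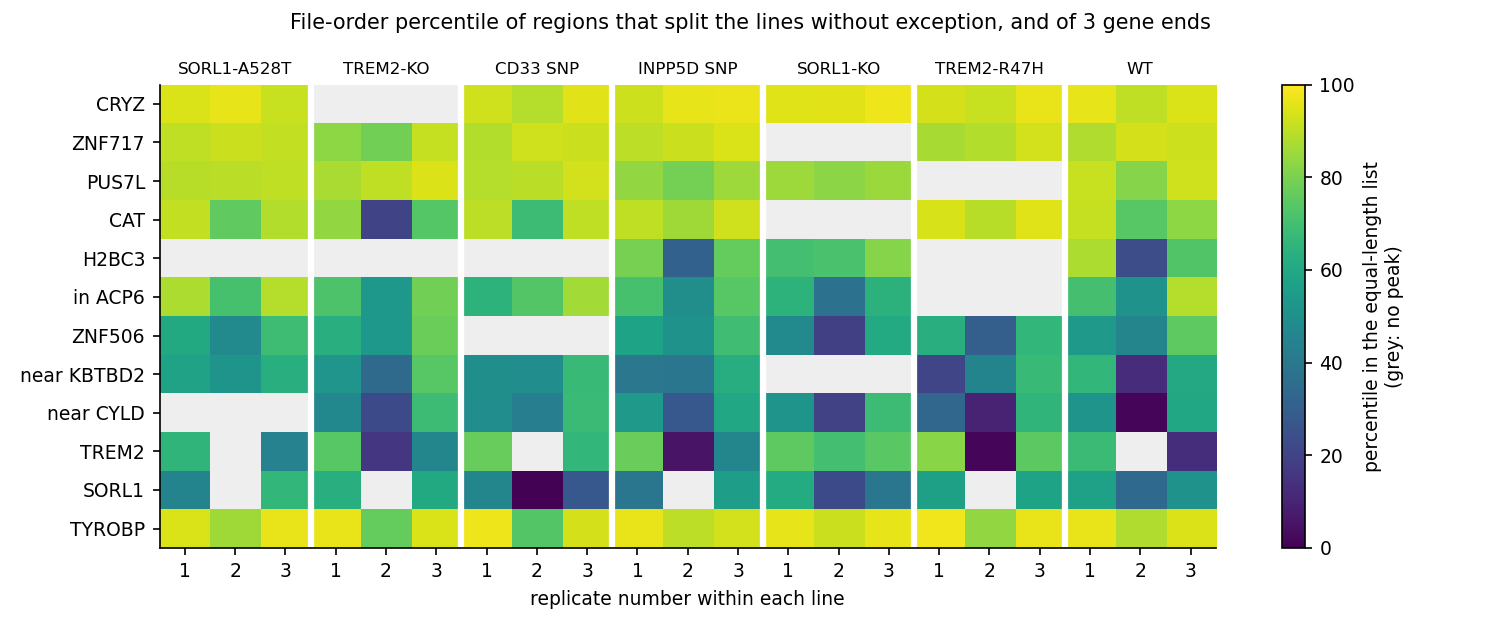
Percentile in the file order (colour, 100 being the first peak; grey, no peak) of the 9 regions with a median percentile above 50 that split the lines without exception, and of the TREM2, SORL1 and TYROBP gene ends, in the 21 libraries grouped by line with replicates 1 to 3 from left to right. CRYZ is grey in TREM2-KO alone, the region near CYLD is grey in SORL1-A528T alone, and H2BC3 is grey in both as well as in CD33 SNP and TREM2-R47H.

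Marks of a single line were also found later in the lists. Besides the region near CYLD, SORL1-A528T alone lacked a region inside PTCHD4 (6, 48048159 to 48049093) and a region with no gene within 100 kb (10, 130715457 to 130716483). SORL1-A528T alone called 6 regions, among them ones inside CLSTN2, SLC38A1 (a glutamine transporter) and GALK2, with median percentiles from 2.37 to 17.8. TREM2-KO alone called 3, inside CHL1, inside DNAAF4 and 1 with no gene nearby, at 7.50 to 23.5. No region was missing from both SORL1-A528T and TREM2-KO and called in all 15 other libraries, and none was called in both and in none of the others; the same held for each of the 20 other pairs of lines. With up to 2 of the 15 other libraries allowed to deviate, 2 regions were missing from both, 1 inside UNC5D and 1 with no gene within 100 kb (10, 123397867 to 123398751). A single region was called in both, near CERS3, a ceramide synthase (15, 100385459 to 100386393). That made 3 shared regions for SORL1-A528T with TREM2-KO, against 10 for SORL1-KO with TREM2-R47H, 1 each for SORL1-A528T with INPP5D SNP, SORL1-A528T with WT and INPP5D SNP with TREM2-R47H, and 0 for the 16 remaining pairs.

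Near-private regions of SORL1-A528T were then read in each of the other lines. The 42 regions called in 3 of 3 SORL1-A528T libraries and in at most 1 of the 15 libraries outside SORL1-A528T and TREM2-KO were called at 31.0% of possible places in TREM2-KO. Chosen in the same way for each line read, such regions were called at 16.7% in WT, 13.1% in INPP5D SNP, 6.06% in CD33 SNP, 4.76% in SORL1-KO and 3.33% in TREM2-R47H. TREM2-KO replicate 3 carried this share, with 71.4% against 16.7% and 4.76% in replicates 1 and 2, and the highest share in WT was also in replicate 3 (40.0%). None of the 42 was called in all 3 TREM2-KO libraries, and the same held for the regions read in each other line. The reverse reading gave 24.1% for 18 near-private regions of TREM2-KO in SORL1-A528T and 20.4% for 18 in WT. Regions missing from SORL1-A528T and called in at least 14 of 15 others were called at 75.6% in TREM2-KO (41 regions) and at 78.6% in WT (42 regions). In the other lines the share ran from 86.9% to 96.2%. None of the 41 was missing from all 3 TREM2-KO libraries, and no other line lacked such a region in all 3 of its libraries. Regions missing from TREM2-KO and called in at least 14 of 15 others were few. They were called at 55.6% in SORL1-A528T (6 regions), 83.3% in WT (2 regions), 77.8% in INPP5D SNP (3 regions) and 100% in each other line (2 regions each). These shares are a description with no test.

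The loci of the 2 edited genes held no all-or-none region. At the gene end of TREM2 (6, 41161604 to 41163617) peaks were called in SORL1-A528T replicates 1 and 3, at percentiles 65.6 and 44.2, and in all 3 TREM2-KO libraries, at 74.1, 15.8 and 46.0. Over 4 regions at TREM2, 7 of 12 possible calls were made in SORL1-A528T and 5 of 12 in TREM2-KO, against 5 to 8 in the other lines. The SORL1 gene end (11, 121451552 to 121453044) was called in replicates 1 and 3 of both lines, at 45.1 and 66.1 in SORL1-A528T and at 63.1 and 60.8 in TREM2-KO. The 18 regions of the SORL1 locus had 28 of 54 possible calls in SORL1-A528T and 33 of 54 in TREM2-KO, against 33 to 37 in the other lines. At APOE, the lipid carrier gene, both sets made 4 of 15 possible calls, 3 of them in each at the APOC1 gene end, against 3 to 11 in the other lines. A promoter can stay open when its product is lost, and calls at these loci were not used to judge a label.

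Per gene, no difference passed the test. For each of 6171 genes with at least 5 regions, the calls of a library were averaged after subtracting the mean call of regions with the same recurrence, a value that sums to 0 over the 6 libraries. With limma, 0 genes were higher and 0 lower in SORL1-A528T at an adjusted p of 0.05 (0% each), and 123 higher and 130 lower passed 0.05 before adjustment (4.1%). No adjusted p was below 0.977. On simulated data of the same shape, call probabilities of chosen genes were shifted between the lines, up or down, and kept between 0 and 1. The test found 8 of 97 genes shifted by up to 0.5 and 20 of 98 shifted by up to 1, so most such shifts would be missed. The differences that resulted could be smaller than the shift set. The genes with the smallest p did not pass. APLN had depth-adjusted calls of 0.14, 0.23 and 0.23 in SORL1-A528T and -0.45, 0.0045 and -0.15 in TREM2-KO, a difference of 0.40 ± 0.11 (SE). CHRD (a BMP antagonist), EIF2B3, ARHGEF17 and TNFRSF10B (a TRAIL receptor) had differences from 0.30 to 0.34. BLVRA, biliverdin reductase, had -0.10, -0.19 and -0.18 in SORL1-A528T and 0.23, 0.11 and 0.14 in TREM2-KO, a difference of -0.32 ± 0.082 (SE). CCDC34, CDH17 and HS3ST4 had differences from -0.39 to -0.33. For each of these genes the groups did not overlap, which the choice by p favours.

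Leaving out replicate 1 changed the gene count. With replicates 2 and 3, limma called 25 genes higher and 47 lower in SORL1-A528T (72 of 5485, 1.31%), among them APLN and BLVRA. Over all 3 replicates 24 of the 25 and the 47 had the same sign but did not pass. That fit holds the same replicate 2 and 3 libraries, so the choice of genes favoured a shared sign. In replicate 1 itself, 42 of the 72 differed in the opposite direction. Without replicate 2 or without replicate 3 no gene passed.

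No gene of the 20 gene lists passed the test. The lists held 303 genes, of which 301 were in the annotation and 136 had enough regions to be tested; 0 of the 136 passed in either direction. The median difference was 0.0071 over 12 genes of TREM2 signalling, from -0.057 for PIK3CD to 0.14 for the kinase SYK, and -0.045 over 13 genes of SORL1 and endosomal sorting, from -0.093 for SORL1 to 0.28 for PACS1. It was 0.064 over 10 genes of disease-associated microglia, from -0.10 for GPNMB to 0.16 for LIPA, and 0.018 over 10 homeostatic genes. Over all 6171 genes it was -0.00097. No list gene had its promoter called in 3 of 3 libraries of one line and 0 of 3 of the other. MEF2C, a transcription factor gene in both the myeloid and the Alzheimer risk list, had a difference of -0.14, the lowest of each.

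Peak widths in shared regions also gave no call. In the 27707 regions called in all 6 libraries, 0 were wider and 0 narrower in SORL1-A528T with limma (0% each), whereas 232 wider and 774 narrower passed 0.05 before adjustment (together 3.63%). No adjusted p was below 0.287. With the replicate number as a block, 373 wider and 1041 narrower passed 0.05 before adjustment, and no adjusted p was below 0.189 (limma). The excess of narrower regions before adjustment was not seen without replicate 2, where 1132 were wider and 1094 narrower, and without centring the counts were 282 and 508. The test found 23 of 100 simulated regions changed by 1 on the log2 scale and 79 of 100 changed by 2. The gene end of RIMS1, a presynaptic scaffold (6, 71886260 to 71888276), was covered over 626, 501 and 775 bp in SORL1-A528T and 1748, 1561 and 2010 bp in TREM2-KO, a difference in centred log2 width of -1.52 ± 0.19 (SE) that did not pass. Also narrower and not past the threshold were regions inside FHIT and CPNE4, 1 near CDC14C and 1 with no gene nearby. On the other side, the gene end of TFE3, a lysosomal transcription factor, was covered over 2794, 2686 and 2719 bp in SORL1-A528T and 1795, 886 and 1391 bp in TREM2-KO, a difference of 1.05 ± 0.21 (SE). TFE3 did not pass either (adjusted p = 0.676, limma). When all lists were shortened to 39711 peaks, 1 region passed, inside TRAF3IP3 (1, 209767634 to 209770158), narrower in SORL1-A528T by a log2 difference of -1.87 ± 0.16 (SE, adjusted p = 0.0297, limma).

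No chromosome was called more in either line. With limma 0 of 23 chromosomes and 0 of 591 bins of 5 Mb passed in either direction, and 0 of both had an unadjusted p below 0.05. The differences ran from -0.038 on chromosome 18 to 0.091 on chromosome 22, with chromosome 19 next at 0.072. Chromosome 22 had depth-adjusted calls of 0.098, -0.042 and 0.080 in SORL1-A528T and of 0.16, -0.077 and -0.22 in TREM2-KO, so replicates of a line differed more than the lines. The values followed gene density in each library, with a sign that differed between libraries of the same line. Across 23 chromosomes the Pearson correlation with annotated genes per Mb was 0.67, -0.67 and 0.69 in SORL1-A528T replicates 1, 2 and 3 and 0.65, -0.67 and -0.67 in TREM2-KO. The difference between the lines had a correlation of 0.70 with gene density (Spearman 0.78). The points of a library share its depth and its tag share in peaks, so the correlations describe libraries and carry no p. Replicate 3 was the number at which the lines had opposite signs, and also the number with the largest gap in tags inside peaks, 39.4% in SORL1-A528T against 71.6% in TREM2-KO; the part of that gap was not tested.

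**Figure D5:**
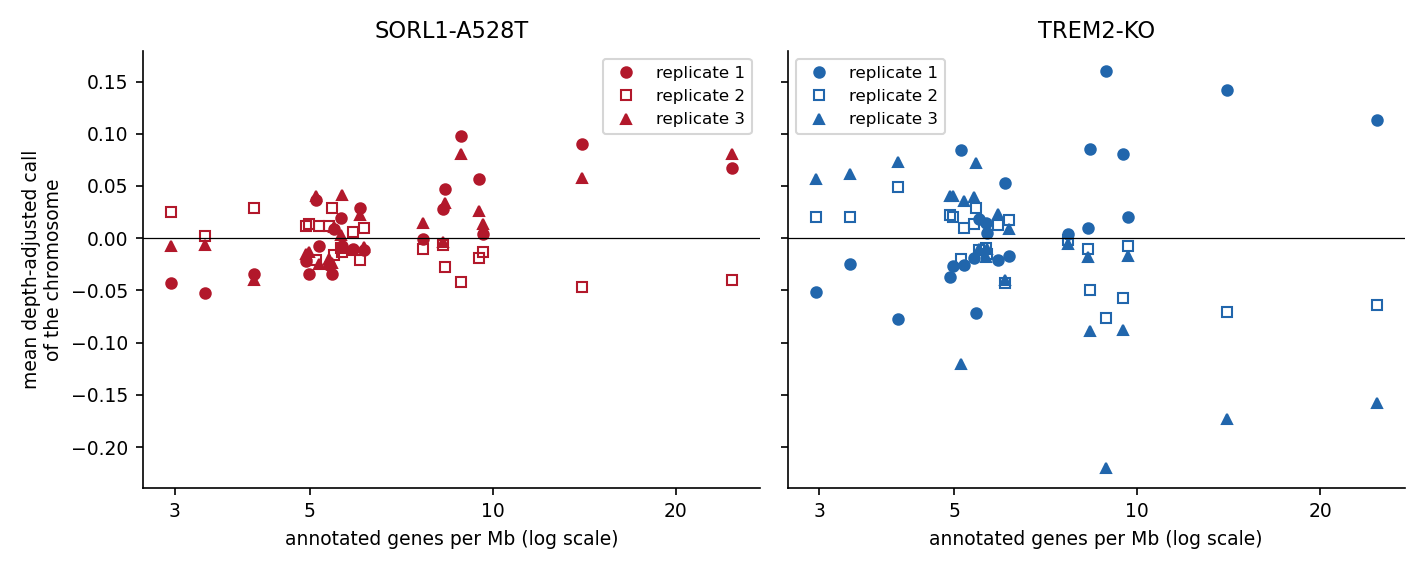
Mean depth-adjusted call of each of 23 chromosomes (vertical axis) against its annotated genes per Mb (horizontal axis, log scale) in SORL1-A528T (left) and TREM2-KO (right), with a symbol for each replicate number. Gene-rich chromosomes are high in SORL1-A528T replicates 1 and 3 and TREM2-KO replicate 1, and low in SORL1-A528T replicate 2 and TREM2-KO replicates 2 and 3.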

How the data were processed

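ATAC-seq peak lists of 21 libraries were used, 6 of them in the main comparison. The authors sorted 80000 cells per line, per the labels' protocols. Per the file headers, the deposited lists came from HOMER, each library called by itself, with a minimum peak size of 500 bp; STAR 2.7, cutadapt 1.18 and HOMER 4.10 are named in the submitters' processing notes, and a genome build is not stated in the sources used here. The deposited score column holds a single value for every peak, so positions, widths and file order were used. Of 1604926 peaks, the 0.0821% on Y and M were dropped. Lists carry no counts per peak, so no interval for counting error was given.

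Lists were shortened within each replicate number, merged at an overlap of 1 bp and assigned to the nearest RefSeq gene within 100 kb (Python 3.11.15, numpy 2.4.6, pandas 2.3.3, scipy 1.17.1). RefSeq windows on GRCh38.p14 lay under regions called in all 6 libraries in 33.3% of 34961 cases, against 2.20% and 2.27% when moved by 10 kb to either side. Depth-adjusted calls per gene, chromosome and bin, and log2 widths centred on each library's median, were tested with limma 3.58.1 (R 4.3.3) and Benjamini-Hochberg adjustment at 0.05. Single values had exact permutation tests. The tests were tried on simulated data; among unchanged features 0 of 5454 genes and 5 of 27507 widths were called.

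Same-numbered libraries of the 2 lines correlated at 0.29, 0.042 and -0.095 for genes, so the numbers were not taken to pair them. For widths they correlated at 0.25, 0.37 and 0.11, which speaks for a pairing. The pairing was weak at replicate 3, as SORL1-A528T replicate 3 correlated at 0.20 with TREM2-KO replicate 1. The main width test took no account of the numbers, and the fit with them as a block is given beside it. Named items were TREM2, SORL1 and APOE, regions missing from 1 line or both, up to 10 all-or-none regions in each direction with gene ends first, and, where none passed, the 5 features with the smallest p in each direction. One gene that this rule names is not reported here. The members and lists were chosen with earlier results of these data known. Promoter-window counts, marks read across lines and regions constant within lines were chosen after seeing the data, as were CADM2 and the genes named among the 25 promoters. Alternatives were deposited and common list lengths, the widest peaks, coverage of at least 50% of a region, other filters, a replicate block and leaving out each number.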

Additional observations from a re-analysis of the deposited data

How the results depend on the processing

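With the lists as deposited, all-or-none regions numbered 10 called in SORL1-A528T and 891 called in TREM2-KO, and with 1 common list length 127 and 354. Without each replicate number in turn they ranged from 421 to 1693 and from 770 to 2136, as 2 libraries against 2 are easier to separate. The within-line excess in similarity ranged from -0.000788 without replicate 3 to 0.00825 without replicate 1. Genes past the threshold ranged from 0 to 25 higher and 0 to 47 lower without each number, both maxima without replicate 1; the cause was not tested. With 1 common length, 1 region was narrower in SORL1-A528T. Regions missing from SORL1-A528T alone numbered 42 with deposited lists and 7 when at least 50% of a region had to be covered; regions called alone were then, with deposited lists, 1 in SORL1-A528T and 5 in TREM2-KO. Leaving out each number (added after seeing the data) gave 20 to 309 missing from and 95 to 185 called in SORL1-A528T alone. For TREM2-KO alone the ranges were 2 to 50 and 52 to 88. Regions missing from both ranged from 0 without replicate 1 to 44 without replicate 2, and those called in both alone from 5 to 9. With the replicate number as a block, limma called 0 genes, 0 chromosomes, 0 bins and 0 widths, as without it; the block changed no call. Peak lists show no peak height, so a region just below the caller's threshold reads as absent, and the shallow replicate 2 libraries limit every count that needs 3 of 3 libraries.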
